A study of Homo sapiens with 4 samples.

Results

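The genes followed, all known as p53 targets or growth arrest genes, were 9: CDKN1A, SFN, CCNG1, CCNG2, GADD45A, GADD45B, BTG2, MDM2 and GDF15. Their members on the array were all probe sets annotated to 1 of these genes and to no other, which gave 28 of the 54675 probe sets and 8 of the 9 genes. No such probe set was listed for BTG2, which was not analysed here. The number of probe sets was 10 for MDM2, 5 for CCNG2, 4 for GADD45B, 3 each for GDF15 and SFN, and 1 each for CDKN1A, CCNG1 and GADD45A.

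RNA came from human lung adenocarcinoma cell lines, the parent line CL1-0 and its invasive subline CL1-5, both labelled as type II alveolar in origin. The groups were CL1-5 with an shRNA against G9a (named shRNA2 in the labels), CL1-5 with a control shRNA, CL1-0 expressing HA-tagged G9a and CL1-0 with a control vector. All 4 were stably transduced populations kept under puromycin selection, and each was measured on 1 Affymetrix array, so no difference within a line has a replicate check and the number of arrays limits the precision. One hairpin and one expression construct were used, and the promoter that drives HA-G9a is not given in the sources used here. G9a, encoded by EHMT2, is a histone methyltransferase that places the repressive methyl marks on lysine 9 of histone H3.

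The p53 protein is a transcription factor that is stabilised by DNA damage and other stress. It switches on genes that hold cells at checkpoints of the cell cycle, and it also switches on MDM2, the ubiquitin ligase that destroys p53, which closes a feedback loop. Several of these genes answer to other factors as well: CCNG2 is induced by FOXO factors in quiescent cells, and the GADD45 genes and GDF15 respond to ATF4, CHOP and other stress regulators. G9a has also been reported to methylate the p53 protein itself.

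Signals are given as deposited, on the linear MAS5 scale, and are compared only within a probe set. The G9a shRNA array was the brighter of its pair, with a median gene 1.34-fold above the control array (log2 ratio 0.42), and the median log2 ratio was -0.08 for HA-G9a over vector. Log2 ratios called relative are those minus this median, and 2-fold was the threshold used, with no test. Genes entered a comparison if their brighter array reached 12.5, the median of all values. The stricter filter was 84.2, which is the 75th percentile. Where a gene had several probe sets, the brightest stood for it. As a technical yardstick, counted probe sets of the same gene differed in log2 ratio with a pooled SD of 0.54 after the knockdown and 0.51 with HA-G9a, and of 0.30 and 0.25 past the stricter filter.

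EHMT2 checked the labels. It read 28.1 in the G9a shRNA array against 376 in its control, and 862 with HA-G9a against 420 with vector. The ratio of the 3′ to the 5′ control probe set lay between 1.01 and 1.09 on all arrays for GAPDH and between 1.25 and 1.55 for ACTB, highest on the vector array. Of the cell type markers, 1 of 9 type II alveolar and 1 to 2 of 6 epithelial genes passed 84.2 on each array, so the labelled alveolar identity was borne by few markers. No fibroblast or leukocyte marker passed it, but the fibroblast marker COL1A1 fell just short on the vector array, at 84.227 against 84.231. COL1A1 read 55.4 with HA-G9a, and 42.0 after G9a shRNA against 9.07 in the CL1-5 control (relative log2 ratio 1.79). Epithelial markers had a summed signal of 2988 after G9a shRNA against 3745 in the CL1-5 control, and of 2360 with HA-G9a against 684 with vector. Most of each sum was KRT18, at 2533, 2945, 2113 and 545 in that order. Of the 5 epithelial markers counted after the knockdown, 2 were at least 2-fold higher (8.13% of all genes) and 1 lower (7.76%). The keratin KRT8 was lower (relative log2 ratio -1.64), whereas EPCAM read 18.1 against 6.06 in the control (1.16). The adhesion protein E-cadherin, encoded by CDH1, read 77.6 against 2.36 in the control, which lies below the floor of 3.35. With HA-G9a the keratins KRT18 and KRT8 were both higher (2.04 and 1.55), and EPCAM read 12.6 against 24.6 with vector (-0.88). Type II alveolar markers summed to 1427 after G9a shRNA against 851 in the control, and to 570.2 with HA-G9a against 511 with vector. Most of each sum was LPCAT1, at 1248, 688, 426 and 360 in that order. Of the 7 counted after the knockdown, 2 were at least 2-fold higher (8.13% of all genes), ABCA3 (1.13) and NAPSA (1.14). NKX2-1 was lower, at 3.87 against 29.6 (-3.35), and the median relative log2 ratio of the 7 was -0.07. With HA-G9a 1 of 5 was at least 2-fold higher (5.46% of all genes) and 1 lower (3.74%), with a median of -0.40. Endothelial markers had a summed signal of 105 after G9a shRNA against 419 in the CL1-5 control, and of 41.9 with HA-G9a against 55.7 with vector, with 1 marker (PECAM1) above 84.2 in the CL1-5 control and none on the other arrays. All 3 endothelial markers counted after the knockdown were at least 2-fold lower, against 7.76% of all genes. PECAM1 read 81.5 against 318 (-2.39), the cadherin CDH5 5.24 against 62.3 (-3.99) and the transcription factor ERG 13.2 against 35.2 (-1.84). The other 2, VWF and TEK, read 2.30 and 2.54 after G9a shRNA against 1.97 and 1.86 in the control, all below the floor of 3.35 used for dim signals. With HA-G9a the 3 counted endothelial markers disagreed. PECAM1 read 1.61, below the floor, against 13.3 with vector (-1.91). TEK read 15.8 against 6.64 (1.33) and ERG 18.4 against 19.9 (-0.03). The part of these markers in the results below was not tested. In RNA from whole cultures, fewer cells of a kind and less RNA per cell cannot be told apart.

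Across the 8 genes, G9a knockdown in CL1-5 went with a mixed pattern: CCNG2, SFN and GDF15 were higher, GADD45A was lower, and CDKN1A and MDM2, the classical readouts of p53 activity, stayed within 2-fold. Thus 4 of 8 genes passed 2-fold, against 15.9% of the 13045 genes counted, with 3 higher (8.13% of all genes) and 1 lower (7.76%). By probe set, 10 of the 21 counted passed, against 16.3% of all. The median relative log2 ratio of the 8 genes was 0.55, where the centring sets that of all genes to 0.00. With HA-G9a in CL1-0 the count was 2 of 8, against 9.21% of 12791 genes: CCNG2 was lower (3.74% of all genes) and GADD45A higher (5.46%). By probe set, 6 of 20 passed, against 9.64% of all. These genes were chosen with results of these arrays known, so the shares describe them and do not test the list.

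**Figure D1:**
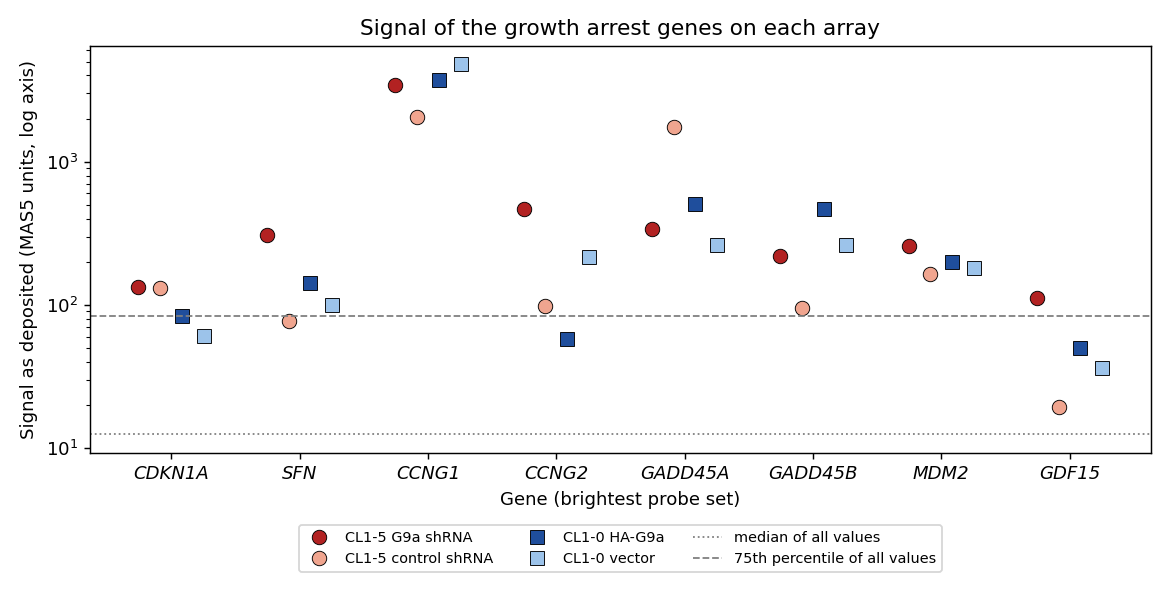
Signal as deposited (log axis) of the brightest probe set of each gene on the 4 arrays, with red circles for CL1-5 and blue squares for CL1-0, and the perturbed population in the darker colour left of its control. CCNG2 reads 467 and 57.7 in the G9a shRNA and HA-G9a arrays, against 97.8 and 215 in their controls, and GADD45A stands out in the CL1-5 control at 1755. Levels can be compared within a gene only.

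CCNG2 encodes cyclin G2, an unconventional cyclin that is high in resting cells and slows the cell cycle when overexpressed. Its brightest probe set (202769_at) read 467 after G9a shRNA against 97.8 in the control, and 57.7 with HA-G9a against 215 with vector. The signal was thus high where G9a was reduced and low where it was added, opposite to EHMT2 in both lines. The relative log2 ratio was 1.83 after the knockdown, a 3.56-fold higher level, and -1.81 with HA-G9a, a 3.52-fold lower level. Both ratios were over 3 times the pooled probe-set SD, which compares probes on the same RNA and holds no variation between cultures. Of the 11883 genes counted in both comparisons, 49 (0.412%) were at least 2-fold higher after the knockdown and at least 2-fold lower with HA-G9a, and CCNG2 was one of them.

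The remaining CCNG2 probe sets read the same RNA samples with other probes. Probe set 202770_s_at read 212 after G9a shRNA against 59.4 in the control, and 49.96 with HA-G9a against 88.3 with vector. Probe set 211559_s_at read 158 against 41.8 in the CL1-5 pair, and 34.3 against 85.7 in the CL1-0 pair. All 5 were higher after the knockdown, with relative log2 ratios from 0.85 to 1.83 (SD 0.38 between probe sets), and 4 of them passed 2-fold. In CL1-0 the agreement was looser: of the 4 counted, 3 were below 0, 2 passed 2-fold, and the dim 1555056_at ran the other way at 13.2 with HA-G9a against 10.7 with vector. The SD between them was 0.94, and the median of the probe sets gave -1.00 in place of -1.81, which just held the 2-fold call.

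**Figure D2:**
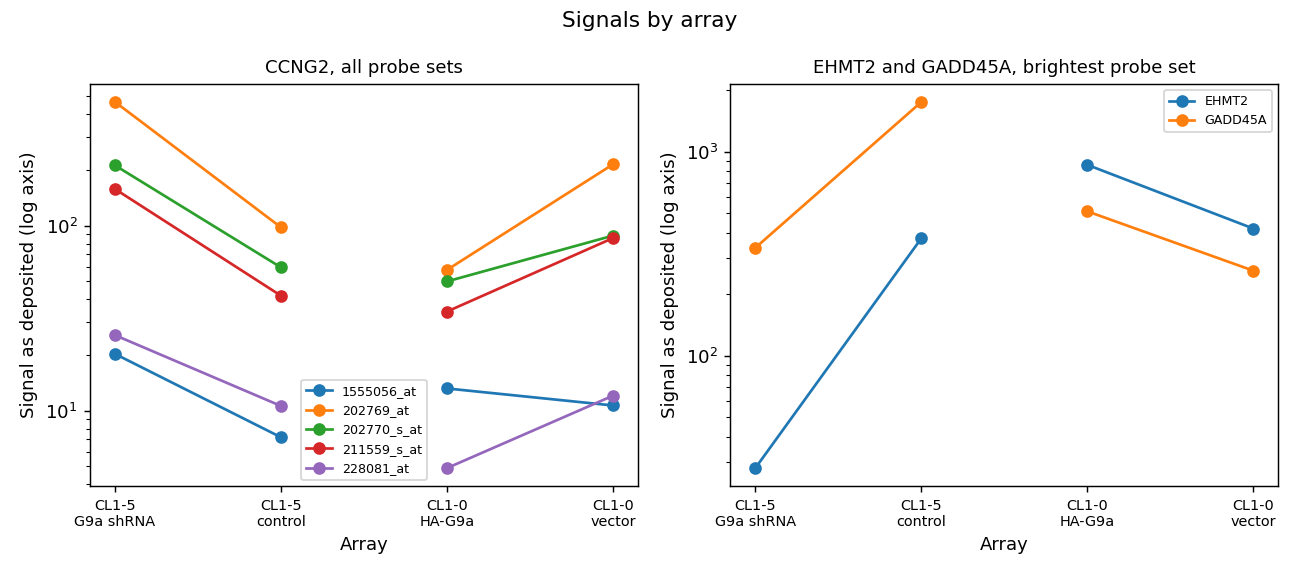
Signals as deposited (log axis) on the 4 arrays; lines join the perturbed population to the control of the same line. Left, the 5 CCNG2 probe sets, all higher after G9a shRNA and 4 of them lower with HA-G9a; right, EHMT2 and GADD45A, which read 28.1 and 338 after G9a shRNA against 376 and 1755 in the control.

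The start region of CCNG2 is printed because the signal of this gene ran opposite to EHMT2 in both lines and G9a acts on chromatin. The 250 bases upstream of its RefSeq start (GRCh38.p14, chr4:77156957-77157206, plus strand) hold 24 CpG dinucleotides, shown in capitals. Of 27305 RefSeq gene promoters, 23.3% had at least as many in the same window, and the median was 11.
CCNG2: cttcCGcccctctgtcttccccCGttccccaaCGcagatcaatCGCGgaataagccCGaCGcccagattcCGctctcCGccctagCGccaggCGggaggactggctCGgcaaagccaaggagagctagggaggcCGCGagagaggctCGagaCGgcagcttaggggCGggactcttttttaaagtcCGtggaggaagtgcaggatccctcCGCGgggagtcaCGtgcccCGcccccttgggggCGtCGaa
The FOXO motif GTAAACA, searched on both strands, had no match in these letters, and was found in 2.98% of all promoters. Such a match or its absence in this window says nothing about where the factors bind. No chromatin was measured here.

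Cyclin G1, encoded by the paralog CCNG1, is a p53 target that recruits a phosphatase to MDM2. CCNG1 read 3444 after G9a shRNA against 2052 in the control, a relative log2 ratio of 0.33, and 3736 with HA-G9a against 4778 with vector, a ratio of -0.27. Both ratios had the sign of those of CCNG2 and neither passed 2-fold. They were below the pooled probe-set SD over all counted probe sets (0.54 and 0.51) and slightly above that past the stricter filter (0.30 and 0.25), which CCNG1 passes on every array. The difference between the paralogs was not tested. CCNG1 has only 1 probe set.

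GADD45A encodes a stress sensor that binds PCNA and p21 and halts the G2 to M transition; it is induced by DNA damage through p53 and by other stress through ATF4. Relative to the median gene it gave the widest ratio of the 8 genes in CL1-5; as deposited, its log2 ratio was -2.38 and that of GDF15 was wider, at 2.53. The single probe set (203725_at) read 338 after G9a shRNA against 1755 in the control. Relative to the median gene it was 6.95-fold lower, a log2 ratio of -2.80. In CL1-0 it read 509.8 with HA-G9a against 261 with vector, a relative log2 ratio of 1.05. Its signal thus went the same way as EHMT2 in both lines. Of the genes counted in both comparisons, 125 of 11883 (1.05%) were at least 2-fold lower after the knockdown and at least 2-fold higher with HA-G9a. The HA-G9a ratio lay at the threshold: it was 0.97 as deposited and 0.89 with both arrays scaled to one median, and then did not pass 2-fold. It also missed 2-fold when genes below the filter were kept, where the median ratio was 0.00.

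GADD45B encodes a relative of GADD45A that activates the MEKK4 stress kinase and is induced by NF-kB and TGF-beta signalling. Its brightest probe set (207574_s_at) read 219 after G9a shRNA against 95.6 in the control, and 466 with HA-G9a against 263 with vector. Relative log2 ratios were 0.78 and 0.91, both short of 2-fold. GADD45B therefore read higher in both perturbed populations, whereas GADD45A was lower in one and higher in the other. Its 4 probe sets ranged from -0.14 to 0.78 after the knockdown (SD 0.41) and from 0.44 to 1.03 with HA-G9a (SD 0.28), where 1 of 4 passed 2-fold. As deposited, the knockdown ratio of the brightest was 1.20 and passed 2-fold.

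Profiles over the 4 arrays were also compared by Euclidean distance on the log2 scale, after centring each array and each gene, among 8884 genes past the stricter filter on their brightest array. CCNG2 had the widest range of deposited signal among the 8 genes (3.02 log2 units), and GADD45A the widest after centring. Nearest to GADD45A among the other genes were EMP1, an epithelial membrane protein (distance 0.26), DUSP1, a MAP kinase phosphatase (0.32), and ECM1, an extracellular matrix protein (0.49). DUSP1 read 273 after G9a shRNA against 1336 in the control, and 342 with HA-G9a against 238 with vector. Within a distance of 1 lay 33 genes. With 4 points per profile, many genes look alike and this is a description only. The nearest pair among the 8 genes was GDF15 and SFN (0.45), and the nearest of the 8 to CCNG2 was SFN, at 1.80.

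SFN encodes 14-3-3 sigma, an epithelial scaffold protein that p53 induces and that keeps cyclin B and CDK1 out of the nucleus in G2 arrest. Its brightest probe set (33322_i_at) read 309 after G9a shRNA against 76.9 in the control, and 141 with HA-G9a against 99.6 with vector. The second (33323_r_at) read 205 against 31.5 in the CL1-5 pair, and 101 against 49.6 in the CL1-0 pair. The third (209260_at) read 35.1 against 2.20 and 13.6 against 18.1. All 3 passed 2-fold after the knockdown, with relative log2 ratios of 1.59, 2.28 and 2.97, and the last rests on a control signal below the floor of 3.35. With HA-G9a they disagreed, from -0.33 to 1.11, and the gene was not called. The other 14-3-3 genes did not pass 2-fold in either line: of 6 counted, 0 passed, against 15.9% and 9.21% of all genes. Their median relative log2 ratios were -0.39 and -0.05. All 6 passed the stricter filter, past which only 847 of 8458 genes and 187 of 7743 reached 2-fold. With 6 genes, the count of 0 does not set SFN apart from its family.

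CDKN1A encodes p21, the inhibitor of cyclin-dependent kinases through which p53 arrests cells in G1. It has 1 probe set (202284_s_at), which read 134 after G9a shRNA against 131 in the control, and 83.8 with HA-G9a against 61.2 with vector. The relative log2 ratios were -0.38 and 0.54. As deposited the knockdown ratio was 0.04, so its sign after the knockdown depended on the centring, and neither ratio passed 2-fold under any scaling tried.

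MDM2, the ubiquitin ligase of p53, was read by 10 probe sets, of which 5 reached the median of all values on their brightest array. The brightest (229711_s_at) read 259.6 after G9a shRNA against 164 in the control, and 201 with HA-G9a against 181 with vector, relative log2 ratios of 0.24 and 0.23. Next in brightness, 225160_x_at read 150.5 against 113 in CL1-5 and 107 against 132 in CL1-0. These lie within the pooled probe-set SD. A dimmer probe set, 217542_at, read 19.2 against 34.3 after the knockdown and 22.3 against 8.05 with HA-G9a, relative log2 ratios of -1.26 and 1.55. After the knockdown 4 of the 5 counted probe sets lay below 0 and 1 above, and with HA-G9a 2 lay below and 3 above. The median of the probe sets turned the knockdown ratio to -0.62, still within 2-fold, so no direction can be given for MDM2.

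GDF15 encodes a secreted member of the TGF-beta superfamily that p53 and the ATF4 stress response induce. Its brightest probe set (221577_x_at) read 113 after G9a shRNA against 19.4 in the control, and 50.2 with HA-G9a against 36.2 with vector. The relative log2 ratio was 2.11 after the knockdown, 4.33-fold higher, and 0.56 with HA-G9a. This value rests on 1 probe set of a type that can cross-hybridise. The other probe sets were below the filter on all arrays: 229868_s_at read 8.32 against 0.29 in the CL1-5 pair, and 221576_at read 1.25 against 1.98.
The 250 bases upstream of the GDF15 start (GRCh38.p14, chr19:18385908-18386157, plus strand) are shown because it is the only gene of the set, of the 8 with a promoter in the RefSeq table, that held a match to the FOXO motif. Capitals mark that match, read here on the opposite strand as TGTTTAC and beginning 96 bases upstream of the start, and a TATAAA box beginning 29 bases upstream.
GDF15: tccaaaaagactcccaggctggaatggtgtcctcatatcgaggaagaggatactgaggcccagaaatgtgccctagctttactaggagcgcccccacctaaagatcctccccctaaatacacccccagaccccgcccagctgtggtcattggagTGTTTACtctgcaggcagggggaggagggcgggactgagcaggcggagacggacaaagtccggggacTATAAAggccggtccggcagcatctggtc
TATAAA on the gene's strand was found in 7.17% of all promoters and also in that of GADD45B, beginning 31 bases upstream. A full match to the p53 half-site consensus was found in none of the 12 promoter windows in the table for these genes and in 5.53% of all. Each window holds only 250 bases and only exact matches were searched for, so sites elsewhere or with mismatches were not covered. These windows include that of BTG2, and GADD45A has no entry. Neither the cAMP response element TGACGTCA (1.77% of all promoters) nor the C/EBP-ATF element TGATGCAA (0.82%), both strands searched, was found in them.

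**Figure D3:**
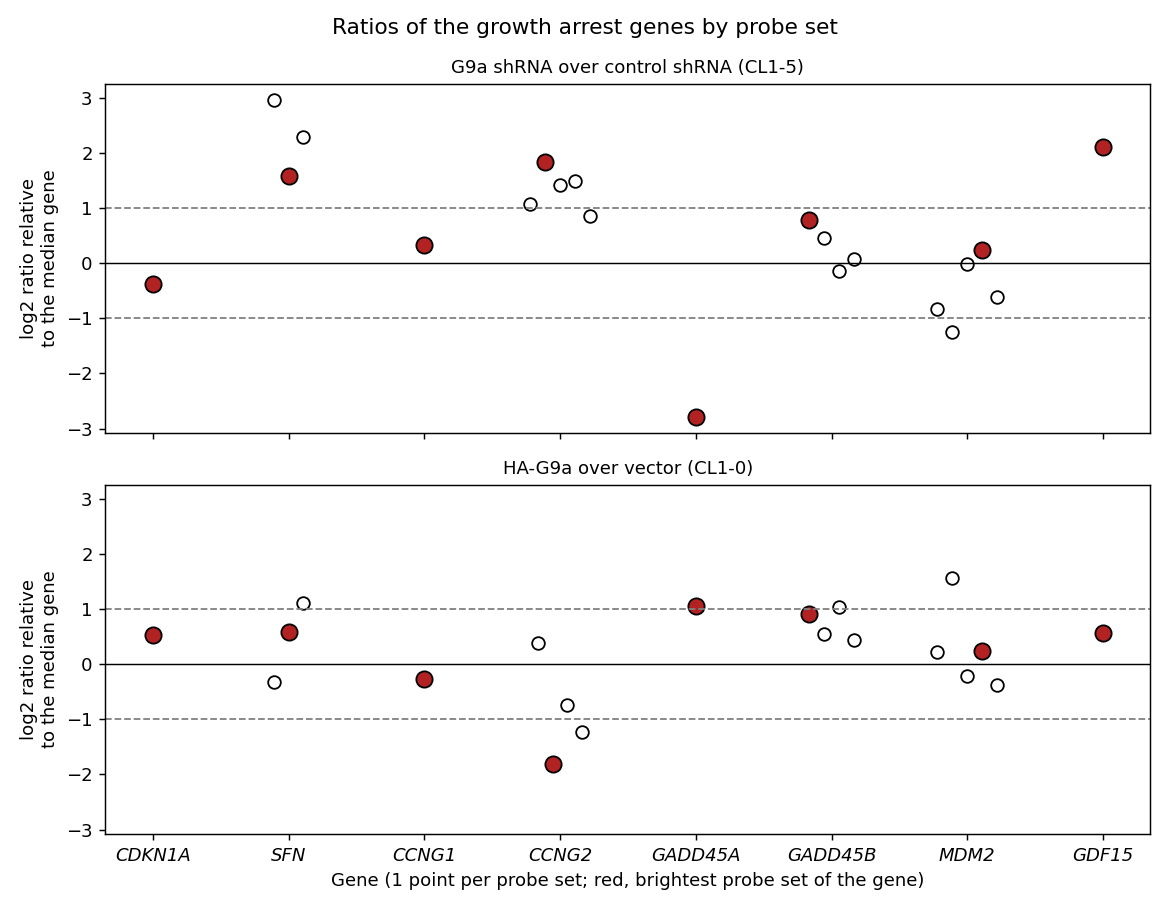
Log2 ratio relative to the median gene for every counted probe set, above for G9a shRNA over control shRNA in CL1-5 and below for HA-G9a over vector in CL1-0. Dashed lines mark 2-fold and the red point of each gene is its brightest probe set. CCNG2 lies above 0 in all 5 probe sets in the upper panel and below 0 in 3 of 4 in the lower one; of the 5 MDM2 probe sets 1 lies above 0 in the upper panel and 3 in the lower.

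Between the lines, the CL1-5 control array was set against the CL1-0 vector array. Both arrays also serve as controls above, so the comparisons are not independent. Of the 8 genes, 5 passed 2-fold, against 25.8% of the 12925 genes counted, with 2 higher in CL1-5 (12.6% of all genes) and 3 lower (13.2%); by probe set 8 of 19 passed, against 26.3%. GADD45A, at 1755 against 261 (relative log2 ratio 2.76), and CDKN1A, at 131 against 61.2 (1.11), were higher in CL1-5. Lower in CL1-5 were GADD45B, at 95.6 against 263 (-1.45), CCNG1, at 2052 against 4778 (-1.21), and CCNG2, at 97.8 against 215 (-1.12). The GADD45B call rests on its brightest probe set: 1 of 4 passed 2-fold, all 4 were below 0, and their median gave -0.75, which left 4 of the 8 genes past 2-fold. After G9a shRNA the CL1-5 cells read 338 for GADD45A, and the CL1-0 arrays read 509.8 with HA-G9a and 261 with vector, so the high level was found in the CL1-5 control alone.

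When both CL1-5 arrays were tested against both CL1-0 arrays with limma over 13953 genes, 0 of the 8 genes passed an adjusted p of 0.05, against 2.39% of all genes. At an unadjusted p of 0.05, 2 of 8 passed, against 23.7% of all genes. They were CCNG1, with a log2 difference of -0.97 (SE 0.26, limma adjusted p = 0.136), and GADD45B, at -1.58 (SE 0.47, limma adjusted p = 0.158). Both CL1-5 arrays lay below both CL1-0 arrays for each. The GADD45A difference was 0.78 with an SE of 1.05 (limma adjusted p = 0.687), as the spread within each line contains the effect of changing G9a. No array is a repeat culture, so these p-values measure only the spread between these arrays.

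Among the p53 regulators, 1 passed 2-fold within a line. Of 16 regulators counted, 0 passed 2-fold after the knockdown, against 15.9% of all genes, with a median relative log2 ratio of 0.05. With HA-G9a 1 of 16 passed (6.25%, against 9.21% of all genes): HIPK2, a kinase that phosphorylates p53, read 299.7 against 92.5 with vector (1.78). MDM4, the MDM2 relative that masks p53, read 341 after G9a shRNA against 206 in the control and 265 with HA-G9a against 350.4 with vector, relative log2 ratios of 0.31 and -0.32. Of its other probe sets, 235162_at gave 0.96 and -0.89 and 225740_x_at 0.85 and -0.46, wider but short of 2-fold. As deposited these were 2.60-fold and 2.42-fold higher after the knockdown. By contrast, 205655_at and 225742_at lay slightly below 0 after the knockdown, at -0.12 and -0.07. Between the CL1-5 control and the CL1-0 vector, 225742_at and 225740_x_at were lower (-2.00 and -1.68), against -0.75 for the brightest. TP73, a p53 homologue, read 37.6 against 25.1 and 30.6 against 39.2. A second TP73 probe set, 220804_s_at, read 23.5 against 2.57 after the knockdown and 3.33 against 19.4 with HA-G9a, with 1 array below the floor in each pair.

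CDKN2A, whose locus encodes p16 and the MDM2 inhibitor ARF, separated the lines. It read 16.7 after G9a shRNA and 20.2 in the CL1-5 control, and 425 with HA-G9a and 332 with vector. The CL1-5 control over vector ratio was -4.02 on the relative log2 scale, 16.3-fold lower in CL1-5. Within the lines the ratios were -0.69 and 0.44.

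Of 32 other p53 targets counted, 3 passed 2-fold after the knockdown (9.38%, against 15.9% of all genes), with a median of 0.03: DDB2, a damage recognition protein, read 171 against 62.5 in the control (1.03), PMAIP1, the BH3-only protein NOXA, 529 against 821 (-1.06), and ZMAT3, a zinc finger RNA-binding protein, 59.8 against 92.0 (-1.04). With HA-G9a 3 of 32 passed as well (9.38%, against 9.21% of all genes; median 0.10). Among these, SESN2, a stress-induced inhibitor of mTORC1 signalling, read 112 against 392 with vector (-1.73), and the other two were below the stricter filter.

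Other growth arrest genes passed 2-fold in 3 of 15 after the knockdown (20%, against 15.9% of all genes; median 0.15) and in 3 of 16 with HA-G9a (18.8%, against 9.21%; median -0.10). CDKN2D, the CDK4 and CDK6 inhibitor p19, read 102 after G9a shRNA against 13.0 in the control (2.55), and 29.6 with HA-G9a against 23.6 with vector. KLF4, a transcription factor that induces p21 in epithelia, read 155 with HA-G9a against 47.2 with vector (1.80), and 1278 after G9a shRNA against 1111 in the control.

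The genes that p21 and the DREAM complex repress when cells stop cycling stayed within 2-fold. None of 20 passed 2-fold in either line, where 15.9% and 9.21% of all genes did, with medians of 0.02 after the knockdown and 0.00 with HA-G9a. Those shares include dim genes, whereas all 20 passed the stricter filter in both lines. Past that filter fewer genes reached 2-fold, 847 of 8458 after the knockdown and 187 of 7743 with HA-G9a. Relative ratios ran from -0.59 to 0.48 and from -0.40 to 0.54. Cyclin A, encoded by CCNA2, read 1181 after G9a shRNA against 669 in the control, and 731 with HA-G9a against 885 with vector. PCNA read 2988 against 2281 and 2357 against 2746. Their relative log2 ratios lay between -0.19 and 0.40.

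Stress factors that act on the GADD45 genes and GDF15 without p53 differed in single members. Of 8 counted, 2 passed 2-fold in each line (25%, against 15.9% of all genes after the knockdown and 9.21% with HA-G9a), with medians of -0.33 after the knockdown and -0.54 with HA-G9a. ATF3, a stress-induced repressor and activator of the ATF family, read 8.45 after G9a shRNA against 64.2 in the control, 10.2-fold lower relative to the median gene (-3.35). EGR1, an immediate early factor, read 464 after G9a shRNA against 155 in the control (1.16). With HA-G9a, DDIT3, which encodes CHOP, read 89.2 against 300.0 with vector (-1.67), and ATF3 read 95.6 against 215 (-1.09). ATF4 itself read 1944 after G9a shRNA against 2087 in the control, and 2352 with HA-G9a against 3673 with vector.

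**Figure D4:**
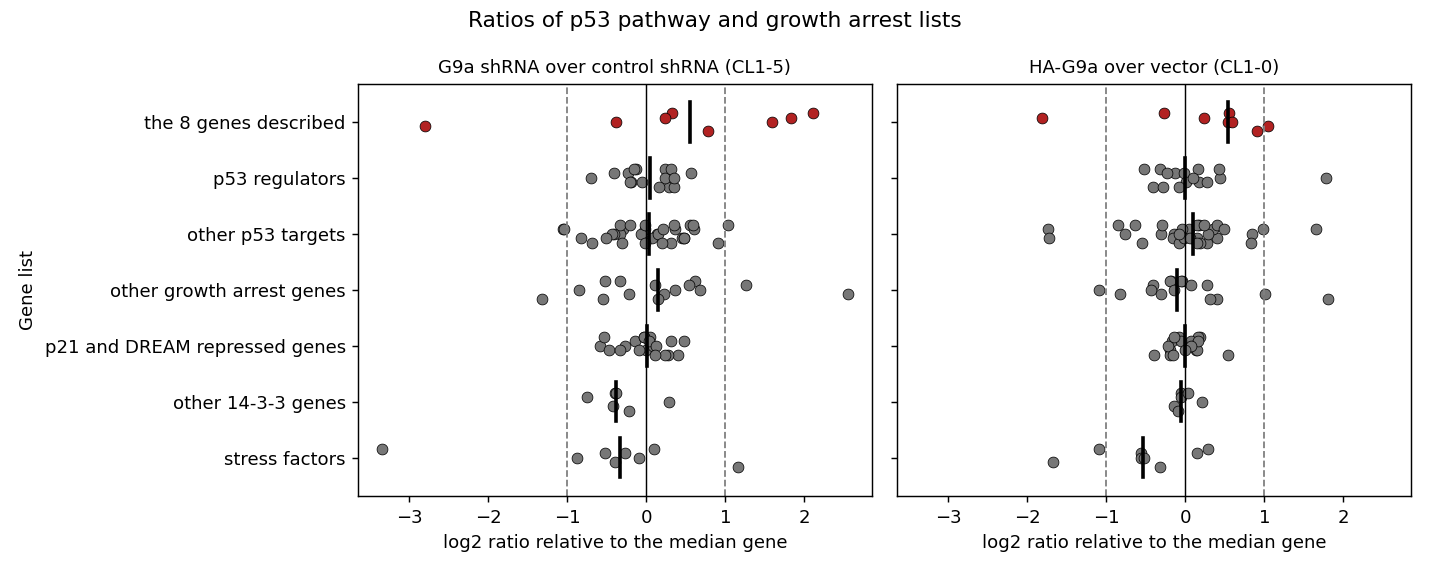
Log2 ratio relative to the median gene (shared horizontal axis) for the counted genes of each list, left for G9a shRNA over control shRNA in CL1-5 and right for HA-G9a over vector in CL1-0. Black bars are list medians and dashed lines mark 2-fold. The 8 genes described (red) spread from -2.80 to 2.11 and from -1.81 to 1.05, whereas the 20 p21 and DREAM repressed genes all lie within 2-fold.

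The same lists were also counted between the lines. Of the other p53 targets, 13 of 32 passed 2-fold between the CL1-5 control and the CL1-0 vector (40.6%, against 25.8% of all genes), 9 higher and 4 lower in CL1-5. IER5, an immediate early response gene, read 1696 against 185 (3.21), PERP, a desmosome protein and p53 effector, 1286 against 255 (2.35), SESN2 68.8 against 392 (-2.49) and PLK2, a polo-like kinase, 164 against 687 (-2.05). Of the regulators, 4 of 16 passed (25%), among them HIPK2 at 876 against 92.5 (3.26), and of the other growth arrest genes 5 of 17 (29.4%), led by KLF4 at 1111 against 47.2 (4.57). Both shares were near that of all genes. Among the 20 p21 and DREAM repressed genes 1 passed, CCNE2, at 494 against 149.8.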

How the data were processed

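The deposited values are linear intensities, 1 for each probe set on each array. MAS5 is named in the submitters' processing notes; the labels state neither its settings nor detection calls. Probe sets were named by the platform's gene table, with symbols updated by Entrez identifier to RefSeq (GRCh38.p14): 41097 had 1 symbol, 1801 several and 11777 were unlisted; 58 sex-linked ones were left out, leaving 19741 genes. Intensities were floored at 3.35, the 25th percentile, and log2-transformed. Limma (3.58.1, R 4.3.3; lmFit, eBayes, Benjamini-Hochberg) compared the lines, with 2 residual degrees of freedom. In simulated data for 13953 genes recovery was 0 of 50 for log2 changes of 1, 23 of 50 for changes of 2 and 46 of 50 for changes of 3. Other steps used Python 3.11.15, pandas 2.3.3 and NumPy 2.4.6. All 8 genes with probe sets are named; of the other lists, members past 2-fold and the stricter filter, at most 6 per list, and MDM4, TP73, CDKN2A and EHMT2 always. ATF4, CCNA2, PCNA, the cell type markers and the second values of listed genes were named after their values had been seen. Genes and lists were chosen with earlier results of these data known. Promoters are RefSeq's. Alternatives covered centring, scaling, floor, filters, probe-set choice, a G9a covariate and leaving out arrays.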

Additional observations from a re-analysis of the deposited data

How the results depend on the processing

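Of 165 ratios of the 8 genes recomputed under the alternatives, 161 moved by less than the probe-set SD, 4 by more, and no call of at least 2-fold changed sign. The knockdown calls for GADD45A, GDF15, CCNG2 and SFN and the HA-G9a call for CCNG2 held under all 7 alternatives. With no centring, with arrays scaled to one median, or with no filter, 1 of the 8 genes passed 2-fold with HA-G9a in place of 2. With the median of probe sets 4 passed between the lines in place of 5, as GADD45B moved to -0.75. The stricter filter gave 847, 187 and 1637 genes past 2-fold for the knockdown, HA-G9a and the lines, in place of 2072, 1178 and 3334, and no filter gave 3244 and 2320 for the knockdown and HA-G9a, since other genes enter the count. The split was 1060 higher and 1012 lower after the knockdown, but 2198 and 618 without centring, and 699 and 479 with HA-G9a, but 555 and 704 with arrays scaled to one median. Between the lines limma called 333 genes, against 575 with the stricter filter, 157 with no floor, 0 with the G9a covariate (2937 at an unadjusted p of 0.05), and 0 to 113 when 1 array was left out, where the lone array is assumed to vary like the others. It called 0 without the CL1-5 control, the HA-G9a or the vector array and 113 without the G9a shRNA array. None of the 8 genes was called under any of these. No paired analysis was possible because each group has 1 array. Signals near 12.5 are close to background, which limits the dim probe sets of MDM2, GDF15 and CCNG2.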
